A study of Mus musculus with 6 samples.

Results

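Laminins and nidogens were examined as 10 named genes, Lama1 to Lama5, Lamb1, Lamb2, Lamc1, Nid1 and Nid2, taken by symbol from the 23329 genes in the count tables. All 10 had a row in every table, and all 10 passed the filter on low counts. The libraries were made from primary cultures of mesenchymal cells from the small intestine of C57 mice, in 2 groups of 3 libraries, with gut taken at embryonic day 14.5 (E14.5) or from adult mice. Before the epithelium was shaken off and the rest digested with enzymes, adult gut was slit open and scraped free of villi while embryonic gut was only cut up, so tissue handling differs between the groups, and no sort is named. No genetic change or drug difference between the groups is named in the labels, and the medium of all 6 cultures held serum and the kinase inhibitor Y27632. RNA was taken after 2 or 3 passages, so the values describe cultured cells and not the gut wall. Whether each culture had its own animal or litter is not stated, so p-values measure only the spread between these libraries, which may be technical.

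Laminins are large cross-shaped proteins made of 1 alpha, 1 beta and 1 gamma chain, and they form the first sheet of a basement membrane, the thin matrix under epithelia and around muscle cells and vessels. Each combination of chains is a separate laminin, and the alpha chain carries the main sites for integrins and dystroglycan on the cell surface. Nidogens are linker proteins that bind the laminin gamma1 chain and also bind collagen IV and perlecan. In the gut, mesenchymal cells and epithelium both contribute to the basement membrane between them, and the alpha chains in use differ between embryo and adult and along the crypt and villus.

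Gene totals ranged from 18850224 to 32672370 counts per library, with the lowest in adult replicate 2. The 10 fibroblast markers summed to 12567 to 24344 CPM (reads of a gene relative to the TMM-scaled library size) at E14.5, against 12220 to 20911 CPM for the adult group, and the 12 smooth muscle markers to 26922 to 38814 and 20069 to 31752 CPM. Vim, an intermediate filament gene, measured 3049 to 3918 CPM, and Acta2, the smooth muscle actin gene, measured 8666 to 15460 CPM. Single markers differed more than the sums: Pdgfra, a fibroblast receptor gene, measured 2.47 to 4.45 CPM at E14.5, against 29.5 to 81.0 CPM for the adult group (edgeR adjusted p = 0.036). Of 9 fibroblast markers tested, 7 had a negative edgeR log2 fold change (E14.5 over adult), while Col1a1 (0.85) and Dcn (0.50) had a positive one. The median of these markers was -0.36, against 0.01 for all genes tested. The 8 pericyte markers summed to 174 to 529 CPM at E14.5 and to 361 to 473 CPM in the adult group. Of 7 tested, 4 lay higher in every E14.5 library than in any adult one, against 12.1% of all genes. Another 2 lay lower in every E14.5 library, against 12% of all genes. The epithelial markers with a row, 15 of 16 listed, summed to 49.8 to 158 CPM at E14.5 and to 69.1 to 135 CPM in the adults, mostly through keratin genes (Krt18 at 16.9 to 83.7 CPM and Krt8 at 4.33 to 33.8 CPM over all libraries, and Krt20 at 24.4 to 61.4 CPM at E14.5, against 9.09 to 13.7 CPM for the adult group). Among the others, Epcam measured 0.0618 to 0.141 CPM, and Cdx2 and Fabp2 had 0 counts in all 6 libraries. The 16 endothelial markers summed to 1987 CPM in adult replicate 2 and 439 CPM in adult replicate 3, against 22.8 to 45.2 CPM in the other 4 libraries. The 15 macrophage and leukocyte markers summed to 268 to 3097 CPM at E14.5, against 26.3 to 214 CPM for the adult group. The mesothelial markers with a row, 9 of 10 listed, summed to 176, 900 and 169 CPM in embryonic cultures 1, 2 and 3. Among adults they summed to 764 to 1667 CPM, so E14.5 replicate 2 lay with the adult libraries in this sum. Single mesothelial markers in E14.5 replicate 2 went both ways. Lrrn4 at 10.02 CPM, Gpm6a at 20.17 CPM and Bnc1 at 23.77 CPM were below every adult library (at least 36.7, 80.47 and 31.98 CPM). Msln, Upk3b, Wt1, Upk1b and Krt7 were inside the adult range, and Dpp4 at 45.93 CPM was above it.

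No laminin or nidogen gene passed the test between E14.5 and adult cultures at an adjusted p of 0.05, although 5 of the 10 had groups that did not overlap. By edgeR's quasi-likelihood test with Benjamini-Hochberg adjustment over 13478 genes, 0 of 10 members were called, where 1.08% of all genes were. At an unadjusted p under 0.05 there were 4 members, Lama1, Lama4, Lamb1 and Lamb2, against 17.9% of all genes. DESeq2 called 3 members, Lama1 as higher and Lama4 and Lamb2 as lower in E14.5, against 10.6% of all genes. With limma-voom 0 members were called, against 1.02% of all genes. All E14.5 libraries lay above all adult libraries for 2 members (Lama1 and Lamb1), against 12.1% of all genes, and below them for 3 (Lama4, Lamb2 and Nid2), against 12% of all genes. In either direction that is 5 of 10 members against 24.1% of all genes, and the same 5 were found under each of the 4 scalings tried. The median log2 fold change, E14.5 over adult, was 0.01 for the 10 members and 0.01 for all genes tested.

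**Figure D1:**
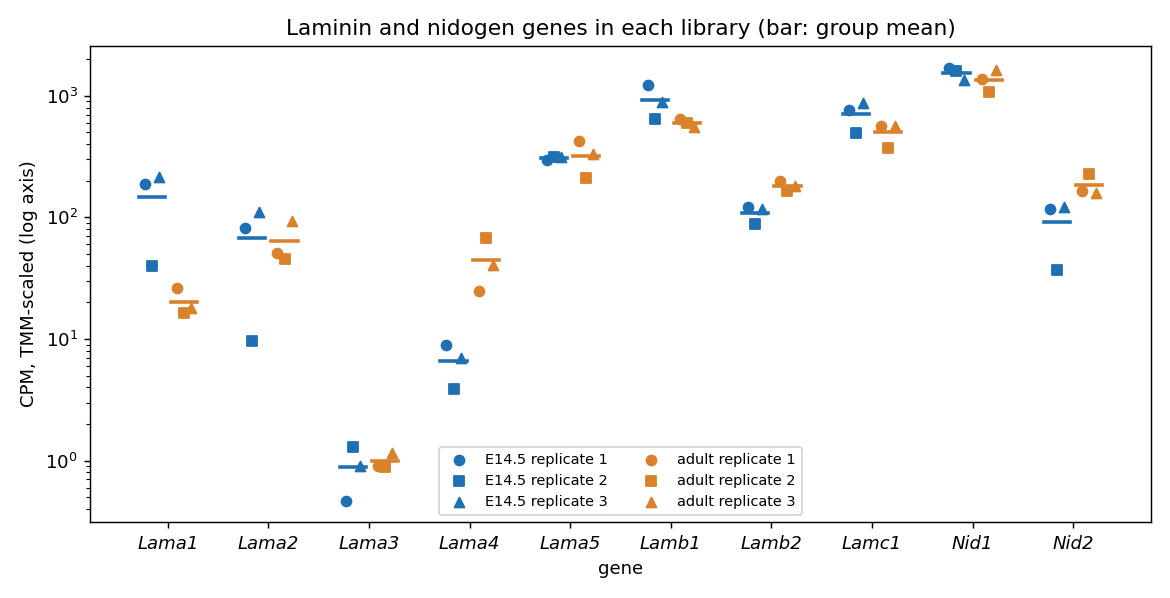
Level of each laminin and nidogen gene in CPM (log axis) in the 6 libraries, with E14.5 in blue, adult in orange, 1 symbol per replicate and a bar at the group mean. The groups do not overlap for Lama1, Lama4, Lamb1, Lamb2 and Nid2, and E14.5 replicate 2 is the lowest E14.5 library for Lama1, Lama2, Lama4, Lamb1, Lamb2, Lamc1 and Nid2.

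Among the alpha chains, Lama1 and Lama4 had the widest separation, in opposite directions. Lama1 encodes the alpha1 chain of laminin-111, the laminin of early embryonic basement membranes. It measured 189, 40.1 and 216 CPM in E14.5 libraries 1, 2 and 3, against 26.1, 16.5 and 17.9 CPM in adult replicates 1, 2 and 3. All E14.5 libraries were above the adult ones, but E14.5 replicate 2 lay closer to the adult libraries than to its own group. edgeR gave a log2 fold change of 2.88 with an SE of 0.63 (adjusted p = 0.099), and between libraries sharing a title prefix the log2 difference was 2.86, 1.28 and 3.60. Without E14.5 replicate 2 the gene was called, at a log2 fold change of 3.33 and adjusted p = 0.011 in edgeR. In that fit 471 of 13788 genes were called, against 146 of 13478 in the main fit. Over the alternatives with replicates in both groups, the adjusted p of Lama1 ranged from 1.372e-05 (DESeq2) to 0.361 (edgeR without adult replicate 3). E14.5 replicate 2 was also the E14.5 library with the high mesothelial sum (900 CPM against 176 and 169). It had the lowest fibroblast sum of the group too (12567 CPM against 22016 and 24344). Its smooth muscle sum was 26922 CPM, against 38814 and 27048 CPM in E14.5 replicates 1 and 3. The part of any of these cell types in its Lama1, Lama2 and Nid2 levels, the lowest of the E14.5 group, was not tested. The gene lies on chromosome 17 of GRCm38 (mm10) from 67697259 to 67822647 on the plus strand and its coding transcript has 63 exons.

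Lama4 encodes the alpha4 chain, a short alpha chain known from the basement membranes of vessels, muscle and fat. It measured 8.85, 3.88 and 6.92 CPM in E14.5 libraries 1, 2 and 3, against 25.0, 67.7 and 40.3 CPM in the adult replicates in the same order. Every adult library was above every E14.5 library, with a log2 fold change of -2.76 (SE 0.47, adjusted p = 0.063, edgeR). The adult libraries ranked for Lama4 as they did for the endothelial marker sum, which was 31.7, 1987 and 439 CPM, and Pecam1, an endothelial adhesion gene, measured 0.947, 444 and 81.5 CPM in them. In adult replicate 1 the endothelial sum was inside the E14.5 range, and single endothelial markers went both ways. Cdh5 at 0.909 CPM, Esam at 6.55 CPM and Tie1 at 0.454 CPM were above every E14.5 library (at most 0.155, 1.91 and 0.0618 CPM). So were Pecam1, Kdr and Tek. Egfl7 at 1.10 CPM, Flt4 at 1.21 CPM, Prox1 at 0.265 CPM and Vwf at 0.416 CPM were below every E14.5 library. The fibroblast marker Pdgfra ranked the adult libraries in the same order as Lama4, at 29.5, 81.0 and 31.7 CPM. The sum of the 10 fibroblast markers did not, at 20382, 12220 and 20911 CPM, lowest in adult replicate 2. The part of either cell type in the Lama4 level was not tested. With adult replicates 2 and 3 both left out, the log2 fold change was -1.94 (adjusted p = 0.590), a fit in which the lone adult library is assumed to vary like the E14.5 group. In these bulk cultures, fewer cells of a type and less RNA per cell cannot be told apart. Lama4 lies on chromosome 10 from 38965515 to 39110188 on the plus strand.

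The other 3 alpha chain genes overlapped between the groups. Lama5, for the alpha5 chain that is widespread in epithelial and adult basement membranes, measured 294, 315 and 315 CPM at E14.5, against 422, 212 and 331 CPM in the adult libraries. Its 3 E14.5 values lay inside the adult range, and its log2 fold change was -0.06 (SE 0.25). Lama2, for the alpha2 chain of muscle and nerve basement membranes, measured 82.1, 9.68 and 110 CPM at E14.5, against 51.1, 45.7 and 93.3 CPM in the adult libraries. E14.5 replicate 2 was far below the other 5 libraries, which overlapped, and the direction of the difference turned when single libraries were left out. Lama3, for the alpha3 chain of epithelial laminin-332, had 15, 42 and 29 counts in E14.5 and 24, 18 and 33 counts in adult libraries. At 0.469 to 1.30 CPM it was the least counted member, and 1 CPM in 3 libraries, the stricter filter, removed it. Lama5 lies on chromosome 2 from 180176373 to 180225859 and Lama2 on chromosome 10 from 26980036 to 27619758, both on the minus strand, and Lama3 on chromosome 18 from 12333819 to 12583013 on the plus strand.

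Because a long transcript collects more reads, levels of different genes were compared per kb of transcript. The GENCODE transcript with the longest coding sequence of each gene was used. The log2 ratios of Lamb1 to Lamb2 and of Nid1 to Nid2 are the exception. They use counts, so transcript length enters their values and cancels only in the difference between stages. Alpha chain use was then the share of each chain in the summed per-kb level of Lama1 to Lama5 within a library, which does not depend on scaling between libraries. Lama5 held the largest share in all 6 libraries, at 46.3%, 82.2% and 43.9% in E14.5 and 75.1%, 51.1% and 61.3% in adult replicates 1, 2 and 3. Lama1 held 35.6%, 12.5% and 36.0% in E14.5 but 5.55%, 4.76% and 3.96% in adult libraries. It was the chain of second highest share in all 3 E14.5 libraries and lay below Lama2 and Lama4 in all 3 adult libraries. Lama4 held 2.63%, 1.91% and 1.82% in E14.5 and 8.40%, 30.8% and 14.1% in adult libraries. Lama2 held 15.3%, 3.00% and 18.2% against 10.8%, 13.1% and 20.5%, and Lama3 held at most 0.368% in any library. The mean difference, E14.5 minus adult, was 23.3 percentage points for Lama1, -15.6 for Lama4, -5.00 for Lama5, -2.62 for Lama2 and -0.0192 for Lama3. Lama1 and Lama4 shares did not overlap between the groups (two-sided exact permutation test, p = 0.1 for each, the smallest that 3 against 3 allows, and 0.18 adjusted over the 9 comparisons of shares and ratios), while the shares of Lama2, Lama3 and Lama5 did (exact p = 0.7, 0.9 and 0.7). The Lama4 difference was -9.11 points without adult replicate 2, -9.74 with no division by length, and -6.28 when adult replicates 2 and 3 were left out, leaving adult replicate 1 alone. Such shares count transcripts only and say nothing of the protein chains secreted.

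**Figure D2:**
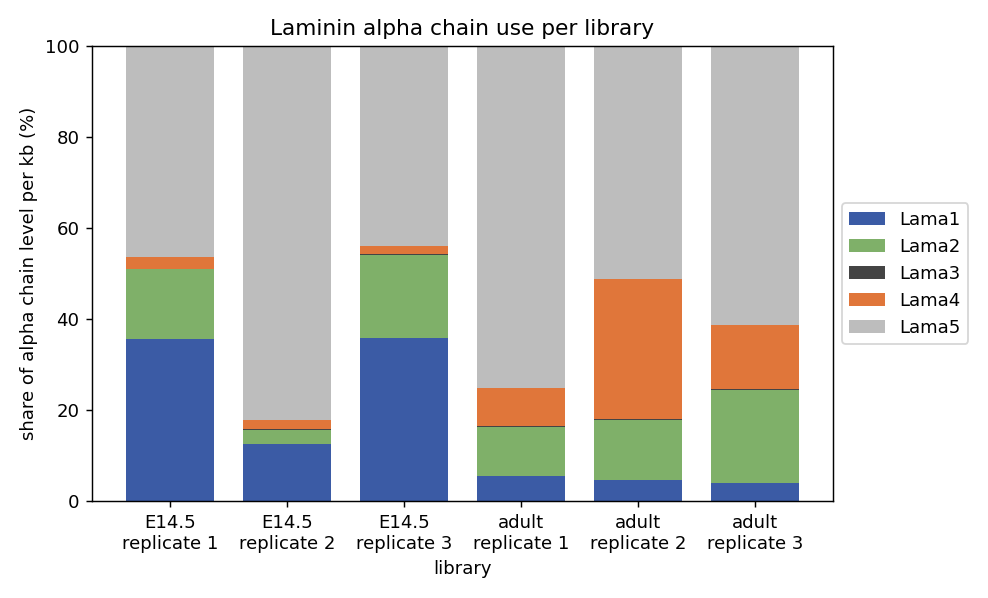
Share of each laminin alpha chain gene in the summed alpha chain level per kb (percent, bars stacked to 100) in each of the 6 libraries. Lama1 takes 12.5% to 36.0% in E14.5 and at most 5.55% in adult libraries, Lama4 at most 2.63% and 8.40% to 30.8%, and Lama5 is the largest in every library.

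The beta chain genes lay on opposite sides between the stages, Lamb1 higher and Lamb2 lower in E14.5, without a call for either, and their ratio within a library did not overlap between the groups. Lamb1, for the beta1 chain of laminins such as laminin-111 and laminin-511, measured 1231, 640 and 896 CPM at E14.5, against 639, 597 and 555 CPM in the adult libraries. E14.5 replicate 2, at 639.8 CPM, was above adult replicate 1, at 638.6 CPM, by a margin far below the spread between libraries, so this separation is a bare one. The log2 fold change of Lamb1 was 0.63 (SE 0.25, adjusted p = 0.255, edgeR). Lamb2, for the beta2 chain of mature muscle, synapse and kidney basement membranes, measured 122, 88.8 and 118 CPM at E14.5, against 199, 164 and 181 CPM in the adult libraries. All E14.5 libraries were below all adult ones, with a log2 fold change of -0.73 (SE 0.16, adjusted p = 0.097, edgeR) and differences of -0.70, -0.89 and -0.62 between libraries sharing a title prefix. The log2 ratio of Lamb1 to Lamb2 counts was 3.33, 2.85 and 2.92 in E14.5 and 1.69, 1.86 and 1.61 in adult libraries. The means were 3.04 ± 0.261 and 1.72 ± 0.128 (SD, n = 3 each; exact permutation p = 0.1, the smallest possible, 0.18 adjusted over 9). The difference of 1.31 lay between 1.16 and 1.41 in every alternative, including each library left out in turn. E14.5 replicate 2, which stood near the adult libraries in Lamb1 and the mesothelial sum, stood with E14.5 in this ratio. Per kb, Lamb1 measured 111 to 213 CPM at E14.5, against 96.0 to 110 CPM in the adult libraries, and Lamb2 measured 15.8 to 21.7 and 29.2 to 35.3 CPM, so Lamb1 exceeded Lamb2 in all 6 libraries.

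The sequence just upstream of Lamb1 and Lamb2 is shown because these 2 genes take the same place in the trimer and lay on opposite sides between the stages. RefSeq promoter entries on GRCm38.p6 gave an upstream stretch for Lama5, Lamb1, Lamb2 and Nid1, and those of Lamb1 and Lamb2 are printed. The printed bases stop before the first exon of both the RefSeq and the GENCODE model, and capitals mark a GC box (GGGCGG on either strand). They are 191 bases at chr12:31265043-31265233 and 124 bases at chr9:108479612-108479735, both on the plus strand. Lamb1 itself lies on chromosome 12 from 31265234 to 31329644 and Lamb2 on chromosome 9 from 108479736 to 108490530.
Lamb1: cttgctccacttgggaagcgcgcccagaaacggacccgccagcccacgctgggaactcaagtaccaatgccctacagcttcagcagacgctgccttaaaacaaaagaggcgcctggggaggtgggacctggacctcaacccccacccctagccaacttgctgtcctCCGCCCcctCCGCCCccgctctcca
Lamb2: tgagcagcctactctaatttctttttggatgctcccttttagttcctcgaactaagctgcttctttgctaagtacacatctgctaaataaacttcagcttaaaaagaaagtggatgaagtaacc

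The Lamb1 stretch held 2 GC boxes, and the Lamb2 stretch held 0. Over the whole RefSeq window of 300 bases, 63.7% of bases were G or C at Lamb1 and 44.0% at Lamb2, against 53.8% over all 32851 mouse promoter windows in the table. The GC box occurred in 35.7% of all windows, the CCAAT box (CCAAT, either strand) in 37.4% and the TATA box (TATAAA, either strand) in 13.6%. The Lamb1 window held 1 CCAAT box and 0 TATA boxes, and the Lamb2 window held 0 of each. These are matches of letters in a window and do not show binding.

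**Figure D3:**
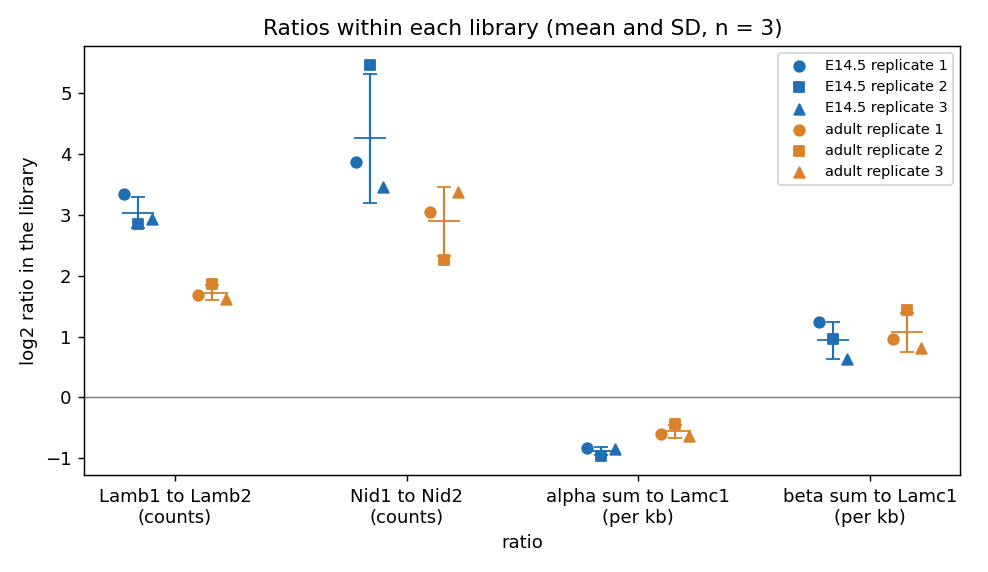
Log2 ratio within each library (points, 1 symbol per replicate; cross-bars, mean and SD over 3 libraries) of Lamb1 to Lamb2 counts, Nid1 to Nid2 counts, and the per-kb alpha and beta chain sums to Lamc1. The Lamb1 to Lamb2 ratio is 2.85 to 3.33 in E14.5 and 1.61 to 1.86 in adult libraries, and the beta sum to Lamc1 ratio overlaps.

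Lamc1 encodes gamma1, the gamma chain of most laminins, which binds nidogen. It measured 758, 497 and 868 CPM at E14.5, against 569, 374 and 559 CPM in the adult libraries. E14.5 replicate 2 lay inside the adult range, and edgeR gave a log2 fold change of 0.50 with an SE of 0.26 (adjusted p = 0.402). In each of the 3 title prefixes the E14.5 library was higher, by 0.42, 0.41 and 0.63 on the log2 scale. Per kb, Lamc1 measured 65.3 to 114 CPM at E14.5, against 49.0 to 74.6 CPM in the adult libraries, above the summed alpha chain level in all 6 libraries. The log2 ratio of the alpha sum to Lamc1 was -0.84, -0.96 and -0.85 in E14.5 and -0.60, -0.43 and -0.63 in adult libraries. These did not overlap (difference -0.33, exact permutation p = 0.1, the smallest possible, 0.18 adjusted over 9). The ratio of the Lamb1 plus Lamb2 level to Lamc1 overlapped, at 1.24, 0.95 and 0.63 in E14.5 and 0.97, 1.43 and 0.81 in adult libraries (exact permutation p = 0.6, 0.788 adjusted).

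Lamc3, for the gamma3 chain, measured 0.907, 1.77 and 0.340 CPM at E14.5, against 3.37, 18.2 and 5.63 CPM in the adult libraries (edgeR log2 fold change -3.16 with SE 0.87, adjusted p = 0.140). Its highest library, adult replicate 2, was the one with the endothelial sum of 1987 CPM, and the part of these cells in it was not tested. Per kb, Lamc1 exceeded Lamc3 in all 6 libraries (65.3 to 114 against 0.0579 to 0.301 CPM at E14.5, and 49.0 to 74.6 against 0.574 to 3.10 CPM in adult cultures). Lamb3, for the beta3 chain, reached at most 3.58 CPM in any library.

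Nid1, for nidogen-1 (entactin), had the highest level per kb of the 10 members in all 6 libraries, with 220 to 280 CPM at E14.5, against 177 to 267 CPM in the adult libraries. Unscaled by length it measured 1706, 1614 and 1342 CPM at E14.5, against 1370, 1076 and 1629 CPM in the adult libraries, which overlapped (edgeR log2 fold change 0.19 with SE 0.20, adjusted p = 0.698). Nid2, for nidogen-2, measured 117, 36.9 and 123 CPM at E14.5, against 165, 226 and 158 CPM in the adult libraries. All E14.5 libraries were below all adult ones, and E14.5 replicate 2 was the lowest by far. For Nid2, edgeR gave a log2 fold change of -0.99 with an SE of 0.45 (adjusted p = 0.324), and the difference between libraries sharing a prefix was -0.50, -2.61 and -0.36. The log2 ratio of Nid1 to Nid2 counts was 3.87, 5.45 and 3.45 in E14.5 and 3.05, 2.25 and 3.37 in adult libraries. It did not overlap, but E14.5 replicate 3 exceeded adult replicate 3 by less than the SD of either group (difference of means 1.37, exact permutation p = 0.1, the smallest possible, 0.18 adjusted over 9). Without E14.5 replicate 2 that difference was 0.77. Exons of Nid2 share 437 bases with Rtraf, a gene on the opposite strand, and the strand-specific count of Nid2 was 107% to 111% of its unstranded count, where the other 9 members had 92.3% to 100.0%. Nid1 lies on chromosome 13 from 13437551 to 13512269, Nid2 on chromosome 14 from 19751265 to 19811787 and Lamc1 on chromosome 1 from 153218922 to 153332786.

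**Figure D4:**
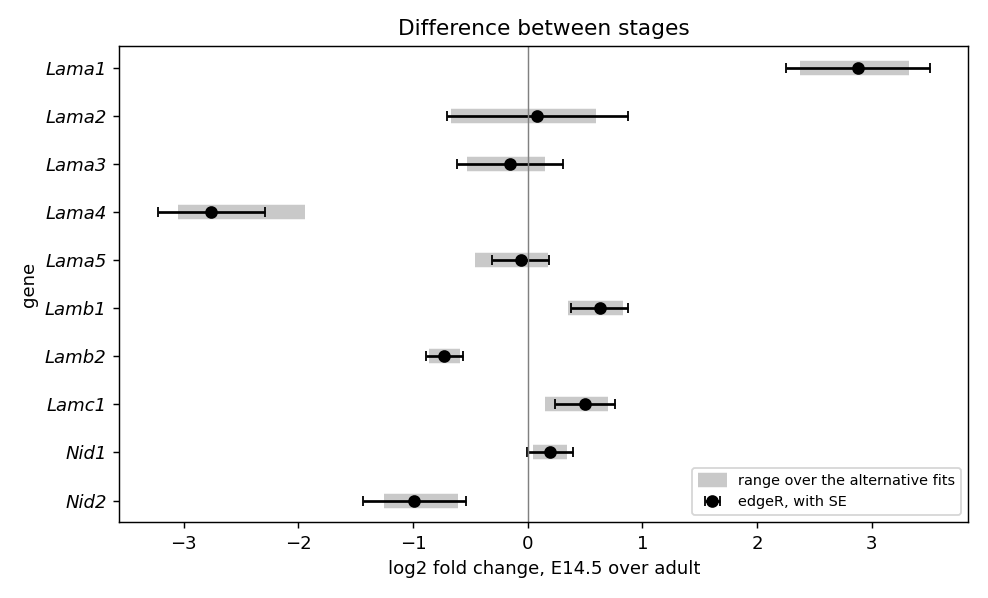
Log2 fold change (E14.5 over adult) of the 10 genes, with the edgeR value and its SE as point and whiskers and the range over the alternative fits as a grey bar. The range stays on 1 side of 0 for Lama1, Lama4, Lamb1, Lamb2, Lamc1, Nid1 and Nid2 and crosses 0 for Lama2, Lama3 and Lama5.

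Ranked per kb by group mean, the members ran Nid1 (255 CPM), Lamb1 (160), Lamc1 (92.9), Lama5 (27.0), Lamb2 (19.5), Nid2 (18.9), Lama1 (15.6), Lama2 (6.998), Lama4 (1.08) and Lama3 (0.0843) in E14.5. In adult libraries they ran Nid1 (223), Lamb1 (103), Lamc1 (65.7), Nid2 (37.5), Lamb2 (32.2), Lama5 (28.2), Lama4 (7.34), Lama2 (6.59), Lama1 (2.12) and Lama3 (0.0936). The top 3 places and the last were the same at both stages. Neighbours in rank whose means differed by less than the SD of at least 1 of the pair were Lamb2 with Nid2, Nid2 with Lama1 and Lama1 with Lama2 among the embryonic libraries, and Nid2 with Lamb2, Lamb2 with Lama5 and Lama4 with Lama2 among the adult ones.

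Other basement membrane genes of a prepared list held 1 called gene among 28 tested, where 1.08% of all genes were called. It was Ntn4, which fell in E14.5. Ntn4 encodes netrin-4, a laminin-related protein that binds laminin gamma chains. It measured 74.1, 65.2 and 81.9 CPM at E14.5, against 242, 183 and 283 CPM in the adult libraries, without overlap (edgeR log2 fold change -1.68 with SE 0.19, adjusted p = 0.030). Its call was lost without E14.5 replicate 1 (adjusted p = 0.119), adult replicate 1 (0.072) or adult replicate 3 (0.137), with adult replicates 2 and 3 left out (0.319) and with the title prefix as a block (0.094). Of the 28 genes, 11 had an unadjusted p under 0.05, against 17.9% of all genes. A negative value was found for 18, with a median log2 fold change of -0.24, against 0.01 for all genes tested. The most counted genes were not past the test: Sparc, for a collagen-binding matrix protein, measured 8387 ± 433 CPM at E14.5, against 9879 ± 2934 CPM in the adult libraries, Col4a1, a collagen IV chain gene, 4837 ± 797 and 5571 ± 802 CPM, and Fbln2, the fibulin-2 gene, 2571 ± 1035 and 3623 ± 888 CPM (SD, n = 3 each). Smoc1, a SPARC-family gene named here after its values were seen, measured 0.907, 0.776 and 6.15 CPM at E14.5, against 124, 324 and 182 CPM in the adult libraries (edgeR log2 fold change -6.32 with SE 1.00, adjusted p = 0.054).

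Genes for laminin receptors and their partners had 0 of 19 tested members past edgeR's test (1.08% of all genes), 6 at an unadjusted p under 0.05 (17.9% of all genes), and 3 called by DESeq2 (10.6% of all genes). Of these 19, 16 had a negative log2 fold change, with a median of -0.42, against a median of 0.01 for all genes tested. No list was tested as a set. Itgb1, the beta1 integrin shared by most laminin receptors, measured 4094 ± 666 CPM at E14.5, against 3298 ± 145 CPM in the adult libraries. Mcam, an adhesion gene whose product binds laminin alpha4, measured 535 ± 149 and 712 ± 46.9 CPM. Dag1, for dystroglycan, measured 237, 434 and 213 CPM at E14.5, against 993, 337 and 806 CPM in the adult libraries, so E14.5 replicate 2 and adult replicate 2 crossed (edgeR log2 fold change -1.27 with SE 0.46, adjusted p = 0.229).

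Enzymes that build the laminin-binding sugar of dystroglycan had, against these same shares of all genes, 0 of 10 tested members past edgeR's test, 0 at an unadjusted p under 0.05, 0 called by DESeq2 and a median of -0.03. Pomgnt1 measured 103 ± 9.64 and 105 ± 6.79 CPM, Large 96.0 ± 16.3 and 105 ± 6.34 CPM, and Tmem5 93.4 ± 18.9 and 85.6 ± 7.38 CPM. Proteases that cut basement membranes and their inhibitors had, against the same shares, 0 of 15 past edgeR's test, 5 at an unadjusted p under 0.05, 3 called by DESeq2 and a median of -0.32. Timp3, for a matrix-bound protease inhibitor, measured 1543 ± 682 CPM at E14.5, against 4513 ± 1165 CPM in the adult libraries (edgeR log2 fold change -1.55 with SE 0.37, adjusted p = 0.113). Timp2, for another inhibitor of this family, measured 1373 ± 407 and 1910 ± 158 CPM. These lists had no gene that rose past the test.

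**Figure D5:**
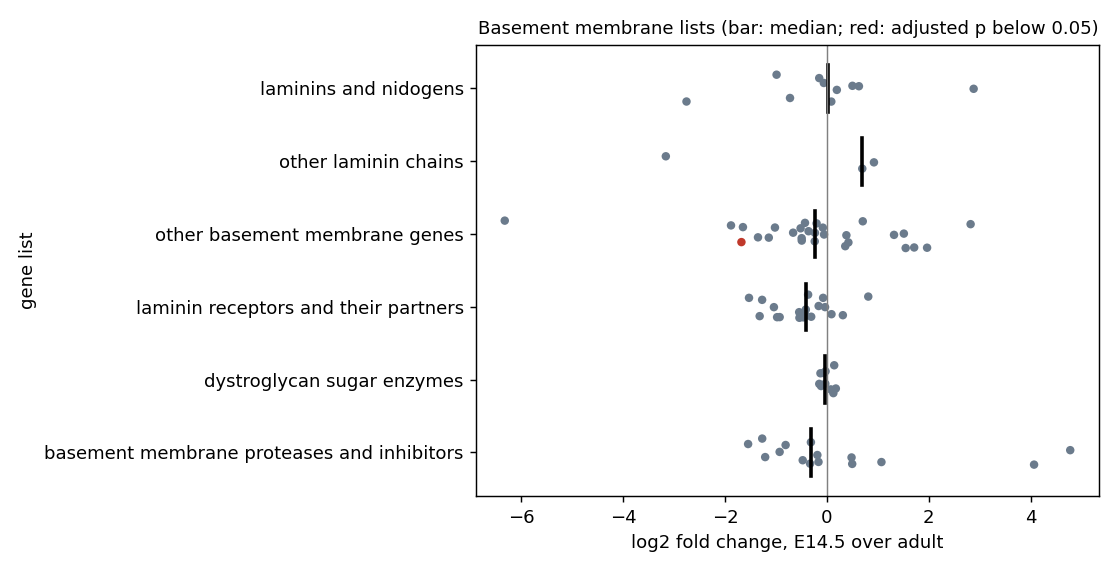
Log2 fold change (E14.5 over adult) of each tested gene in the laminin and nidogen set and 5 related lists, with a bar at the list median and red for adjusted p below 0.05. The only red point is Ntn4 at -1.68, and the laminin and nidogen genes spread from -2.76 (Lama4) to 2.88 (Lama1) around a median of 0.01.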

How the data were processed

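Poly(A) RNA from 6 cultures was read from a single end, in stranded libraries, per the labels' protocols. The authors deposited raw whole-number counts per gene, 1 table per library, and the submitters' processing notes name STAR and mm10. The aligner's version, the annotation and the handling of shared reads are stated nowhere in the sources used here. The reverse-strand column was used; forward-strand counts were 1.33% to 1.69% of stranded gene counts. Rows that name no gene held 17.45% to 19.81% of reads and were left out.

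Counts were tested in R 4.3.3 with edgeR 4.0.16 (filterByExpr, TMM, robust quasi-likelihood) on 13478 genes, threshold 0.05. The SE is the log2 fold change over the square root of F. DESeq2 1.42.0 (its own filter off) and limma 3.58.1 were alternatives, with other scalings, filters, the unstranded column, the title prefix as a block and libraries left out. Transcript lengths came from GENCODE M21 on GRCm38. Replicates are in accession order. The fit was tested on simulated data. Members and lists were chosen with earlier results of these data known. From each list the text names the called genes and the 3 of highest CPM not called; some genes taken by this rule are not reported here.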

Additional observations from a re-analysis of the deposited data

How the results depend on the processing

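Of the 17 alternative fits, 15 also called 0 members; DESeq2 called 3, and leaving out 1 library called 0 to 1 (Lama1, without E14.5 replicate 2). Over all genes, 146 were called, against 1427 with DESeq2, 2 with the title prefix as a replicate block, 0 with adult replicates 2 and 3 left out, 36 with adult replicate 2 and E14.5 replicate 3 left out, and 3 to 471 with 1 library left out. Deviations of libraries sharing a prefix correlated at -0.14, -0.23 and -0.09 across genes, and those of different prefixes at -0.10 to 0.20. With 3 libraries per group, these values cannot decide whether the prefix marks a pairing or a batch, and what it marks is not stated.

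The log2 fold changes of Lama1, Lama4, Lamb1, Lamb2, Lamc1, Nid1 and Nid2 kept their direction in all 17 fits. That of Lama2 (0.09) was -0.45 with limma-voom, -0.38 with the prefix block, -0.67 with adult replicate 2 and E14.5 replicate 3 left out, and -0.47 to 0.60 without 1 library. That of Lama3 (-0.15) reached -0.53 to 0.15 and that of Lama5 (-0.06) -0.29 to 0.18 without 1 library. Lama5 was 0.002 on library size alone and 0.0038 with limma-voom.

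Without 1 library, the share difference was -5.62 to 1.97 points for Lama2, -0.106 to 0.0379 for Lama3 and -17.4 to 1.77 for Lama5, and the beta to Lamc1 ratio difference -0.277 to 0.0538. Without adult replicates 2 and 3 it was 1.38 points for Lama2, 0.0194 for Lama3 and -6.28 for Lama4. Over all alternatives, the Lama1 share difference lay between 19.3 and 31.0 points, and the log2 ratio difference between 1.16 and 1.41 for Lamb1 to Lamb2, 0.77 and 1.77 for Nid1 to Nid2, and -0.37 and -0.27 for the alpha sum to Lamc1. The cause of these shifts was not tested.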
